A study of Mus musculus with 6 samples.

Results

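Noncontractile markers of activated fibroblasts were followed in cells sorted from mouse heart scar: Fap, Cthrc1, Ddah1, Meox1, Adam12, Ddr2, Islr, Thy1, S100a4 and Lrrc15. These 10 genes were chosen by name from 42256 genes in the deposited table, and all 10 passed the filter on low counts, which left 15840 genes for testing. RNA was sequenced from PDGFRa+ cells, a fibroblast-enriched fraction obtained by flow cytometry from collagenase-digested scar tissue 7 days after myocardial infarction. In the 4 Htr2b_cKO libraries the genotype was Htr2bfl/flPostnMCM/+, that is, both alleles of the serotonin receptor gene Htr2b were floxed and 1 allele of Postn carried a tamoxifen-inducible Cre. In the 2 control libraries the genotype was Htr2bfl/fl with no Cre. Mice of both groups were of mixed 129S2/C57Bl6 background, carried the floxed gene and received tamoxifen chow from 1 week before injury onward, and no age is given in the labels. The Cre is driven by Postn, so it acts in periostin-expressing cells. No control carried the Cre allele, so its own effects and those of deleting the receptor cannot be told apart. The design counts 4 Htr2b_cKO and 2 control animals, and a library was read as a single animal.

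After infarction, resident fibroblasts leave their resting state, proliferate and build a collagen scar. Part of this response is contractile and rests on smooth muscle actin and its partners. The other part, followed here, consists of surface proteases and collagen receptors, membrane glycoproteins, secreted matrix regulators and the factors that switch them on. Several of these genes, such as Fap and Cthrc1, are widely used to recognise fibroblasts of the healing scar.

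None of the 10 markers differed between Htr2b_cKO and control scar fibroblasts beyond the spread between libraries. By edgeR's quasi-likelihood test with Benjamini-Hochberg adjustment over all tested genes, 0 of the 10 were called at an adjusted p under 0.05, against 3 of 15840 genes (0.0189%), of which 2 were higher (0.0126%) and 1 was lower (0.00631%). Their adjusted p values ran from 0.681 to 0.982. None had an unadjusted p under 0.05, against 9.59% of tested genes, and DESeq2 called 0 of the 10, against 0.806% of the genes to which it gave an adjusted p. The Htr2b_cKO libraries did not lie wholly above or wholly below both controls for any of the 10, against 19.6% of tested genes. Log2 fold changes (Htr2b_cKO minus control) were positive for 9 of the 10, beside 7918 of the 15840 tested genes, and their median was 0.13. Without control 2 only 5 were positive and the median was 0.02, whereas without control 1 it was 0.27.

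**Figure D1:**
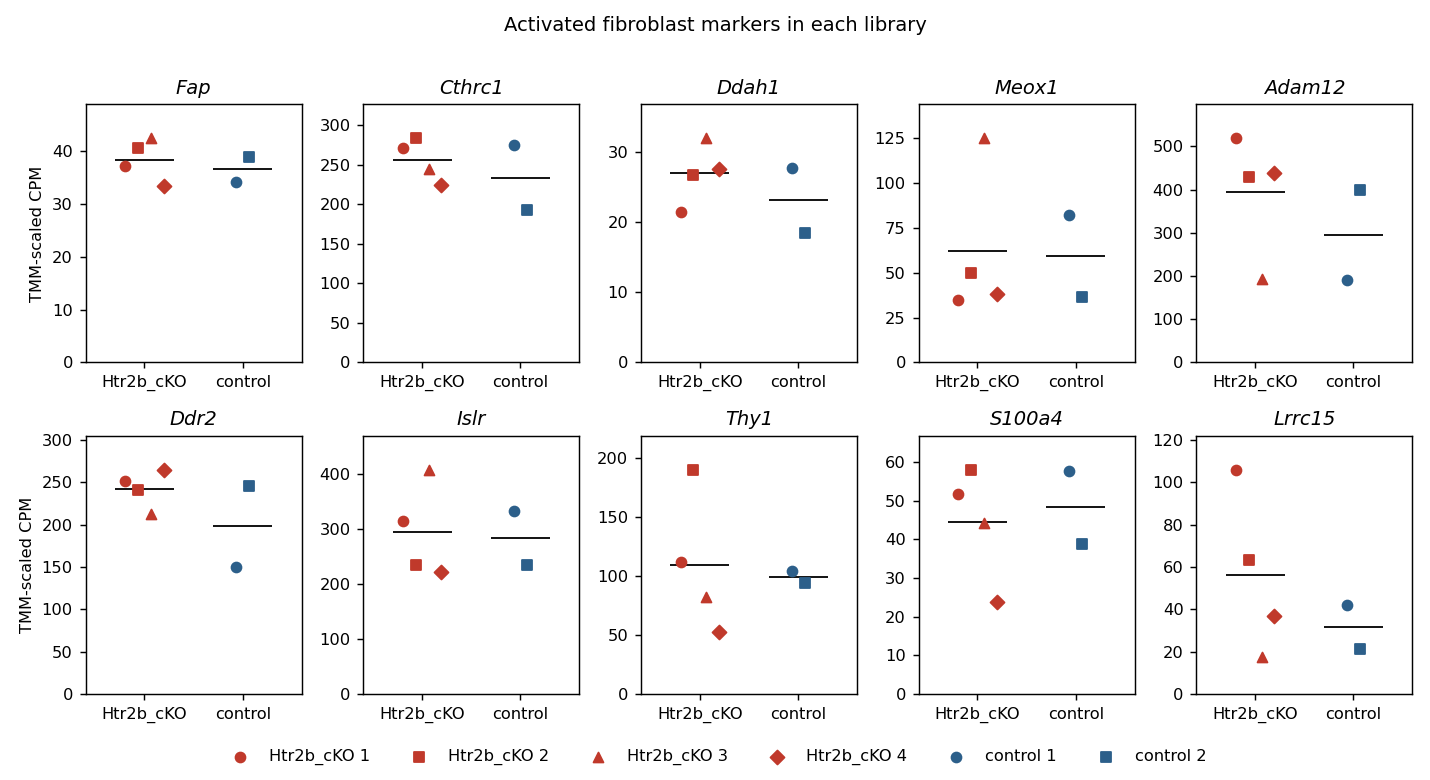
TMM-scaled CPM (counts scaled to library size, vertical axes from 0) of each marker in the 4 Htr2b_cKO and 2 control libraries, with a line at each group mean. In all 10 panels the Htr2b_cKO points overlap the control points, and the widest spread within Htr2b_cKO is that of Lrrc15, from 17.6 to 106 CPM.

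All values below are CPM, counts divided by library size after TMM scaling, unless another scale is named, and library totals ran from 28533427 to 37392496 estimated counts. Markers of the sorted cell type were abundant in every library: 8 fibroblast markers, among them Pdgfra and collagen genes, summed to 75637 to 129653 CPM in Htr2b_cKO and to 90252 and 115112 CPM in control libraries. The deleted gene, Htr2b, had 0, 3, 29 and 4 estimated counts in Htr2b_cKO libraries 1 to 4, against 13 and 7 in controls 1 and 2. Htr2b_cKO 3 thus exceeded both controls and is called below the library labelled Htr2b_cKO 3. Htr2b was at 0.876 CPM or less in every library, and counts over the whole gene do not show whether a floxed exon was removed. The count of 29 therefore does not settle the genotype of that library. The library labelled Htr2b_cKO 4 had 139 CPM over 4 Y-linked genes, against at most 0.483 CPM in each of the other 5 libraries, so it stands apart by sex. Transcripts of other cell types varied between libraries. The 10 macrophage markers summed to 951, 2413, 4527 and 532 CPM in Htr2b_cKO libraries 1 to 4, against 2871 and 998 CPM in controls 1 and 2, and none was at 0 in any library. In bulk samples such as these, fewer cells of a type and less RNA per cell cannot be told apart.

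Per kilobase of exon, Cthrc1 was the most abundant of the 10 markers, with 156 ± 22.1 CPM per kilobase (SD, n = 6 libraries of both groups). Islr followed with 108 ± 27.6, S100a4 with 78.2 ± 22.4, Thy1 with 35.4 ± 15.4, Adam12 with a mean of 34.2 (18.0 to 49.1), Meox1 with 27.4 ± 16.2 and Ddr2 with 24.6 ± 4.54 CPM per kilobase. Lrrc15 (9.0 ± 6.2), Fap (6.67 ± 0.632) and Ddah1 (6.45 ± 1.22 CPM per kilobase) were the least abundant. Each gene's range over the 6 libraries overlapped that of its neighbour in this order, so the order holds only across wider steps. The lowest count of any marker in any library was 512, for Ddah1 in control 2, so counting error was small beside the differences between libraries.

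Promoter sequences are shown for Lrrc15, which had the largest fold change and the widest range of the 10 markers, and for S100a4, the only marker with a fold change below 0. Of the 10 markers 5 had an entry in the RefSeq promoter table (build GRCm38.p6). Each sequence is the 250 bases before the start site, 5′ to 3′ on the strand of the gene, and capitals mark matches on either strand to a TATA box (TATAAA), an AP-1 site (TGACTCA) or a Smad element (CAGAC). These 3 motifs do not overlap one another in the sequences shown.
Lrrc15, chr16:30283255-30283504, minus strand: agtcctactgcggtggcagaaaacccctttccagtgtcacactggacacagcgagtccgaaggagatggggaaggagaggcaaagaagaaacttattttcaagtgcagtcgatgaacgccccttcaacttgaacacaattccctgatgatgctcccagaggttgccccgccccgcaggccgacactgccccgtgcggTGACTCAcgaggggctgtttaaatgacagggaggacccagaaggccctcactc
S100a4, chr3:90603520-90603769, plus strand: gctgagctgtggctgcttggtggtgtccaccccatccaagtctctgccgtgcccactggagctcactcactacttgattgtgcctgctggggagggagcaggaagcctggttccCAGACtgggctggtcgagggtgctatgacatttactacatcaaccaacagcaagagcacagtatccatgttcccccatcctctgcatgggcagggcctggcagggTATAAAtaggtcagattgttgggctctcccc
The Lrrc15 window held 1 AP-1 match, which 4.46% of 32851 promoter windows of the same length also held, and no match to the other motifs. The S100a4 window held 1 TATA box match, as 12.4% of windows did, and 1 Smad element match, as 42.2% did, and no AP-1 match. A match describes the letters only. No binding was measured.

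Among the surface proteases and receptors, Fap was the steadiest of the 10 markers. It encodes fibroblast activation protein, a membrane serine protease, and spans chromosome 2 from 62500943 to 62574075 (mm10, as for all positions below). Fap stood at 37.2, 40.5, 42.4 and 33.3 CPM in Htr2b_cKO libraries 1 to 4, against 34.1 and 38.9 CPM in controls 1 and 2. The highest and the lowest library both belonged to Htr2b_cKO and differed 1.27-fold, and both controls lay between them. For Fap edgeR gave a log2 fold change of 0.07 with an SE of 0.15 (adjusted p = 0.904; interval of 2 SEs, -0.22 to 0.37). A correction for GC content and exon length turned the estimate to -0.32, with Htr2b_cKO wholly below control, still uncalled (edgeR adjusted p = 0.82); 14.2% of tested genes did not overlap after that correction.

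Adam12, on chromosome 7 from 133883199 to 134232146, encodes a membrane-anchored metalloprotease of the disintegrin family. It had 519, 429.9, 193 and 439 CPM in Htr2b_cKO libraries 1 to 4, against 191 and 399 CPM in controls 1 and 2. The library labelled Htr2b_cKO 3 and control 1 were low together and nearly equal, and the other 4 libraries were all at 399 CPM or more. For Adam12 edgeR gave a log2 fold change of 0.42 with an SE of 0.45 (adjusted p = 0.798). Leaving out control 2 raised it to 1.06, and leaving out control 1 brought it to -0.02. With the library labelled Htr2b_cKO 3 left out it was 0.66, and the remaining 3 lay above both controls; in that setting the groups did not overlap for 31.2% of tested genes.

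Ddr2, on chromosome 1 from 169972307 to 170110762, encodes a receptor tyrosine kinase that binds fibrillar collagen. Its levels were 252, 241, 212 and 265 CPM in Htr2b_cKO libraries 1 to 4, against 149.7 and 246 CPM in controls 1 and 2. Control 1 was the low library, and control 2 fell among the Htr2b_cKO values. The log2 fold change of 0.30 (SE 0.21) had the smallest p of the 10 markers (unadjusted p = 0.191, edgeR adjusted p = 0.681), and it was -0.02 without control 1 and 0.70 without control 2. The related collagen receptor gene Ddr1 averaged 129.9 ± 35.4 CPM in Htr2b_cKO and 155 ± 21.7 CPM in control libraries (SD, n = 4 and 2; edgeR adjusted p = 0.789).

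Of the membrane glycoproteins, Lrrc15 had the widest range. The gene, on chromosome 16 from 30269302 to 30283256, encodes a leucine-rich repeat protein found on activated fibroblasts in wounds and tumours. It had 106, 63.5, 17.6 and 36.9 CPM in Htr2b_cKO libraries 1 to 4, against 41.8 and 21.0 CPM in controls 1 and 2. Htr2b_cKO libraries alone spanned 6.01-fold and enclosed both controls. The log2 fold change of 0.83 (SE 0.74, edgeR adjusted p = 0.761) was the largest of the 10, with an interval of 2 SEs from -0.66 to 2.31. It was 1.41 without control 1, 0.43 without control 2 and 0.33 without Htr2b_cKO 1.

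Thy1, on chromosome 9 from 44043384 to 44048579, encodes the surface glycoprotein CD90 of fibroblasts, which mouse T cells also carry. Thy1 had 112, 190.0, 82.3 and 52.4 CPM in Htr2b_cKO libraries 1 to 4, against 104 and 94.1 CPM in controls 1 and 2. The controls were close together, and the Htr2b_cKO values spread 3.63-fold around them (log2 fold change 0.14, SE 0.48, edgeR adjusted p = 0.95). The fold change was -0.27 without Htr2b_cKO 2, the highest library. The T cell genes Cd3e and Trac were each at 1.2 CPM or less in all 6 libraries. The part of T cells in the Thy1 levels was not tested.

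Islr, on chromosome 9 from 58156268 to 58204306, encodes a membrane-linked protein of the immunoglobulin and leucine-rich repeat families, also called meflin. It had 315, 234, 408 and 221 CPM in Htr2b_cKO libraries 1 to 4, against 332 and 234 CPM in controls 1 and 2. The library labelled Htr2b_cKO 3 was highest and control 1 next, and the lowest library was Htr2b_cKO 4 (log2 fold change 0.06, SE 0.27, edgeR adjusted p = 0.967). The annotation of Islr overlaps that of its relative Islr2 on the same strand, so how reads were divided between them is uncertain; Islr2 averaged 8.85 CPM and Islr 291 CPM over the 6 libraries.

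Cthrc1, on chromosome 15 from 39076932 to 39087121, encodes a secreted glycoprotein with a collagen-like repeat that marks fibroblasts of the mouse infarct scar. Cthrc1 had 272, 284, 245 and 224 CPM in Htr2b_cKO libraries 1 to 4, against 275 and 193 CPM in controls 1 and 2. Control 2 was the lowest library, and control 1 lay within the Htr2b_cKO range (log2 fold change 0.13, SE 0.18, edgeR adjusted p = 0.847). The estimate was 0.41 without control 1 and -0.09 without control 2. Genes of the Wnt receptor complex through which the protein is reported to act, Fzd6, Ror2 and Vangl2, had edgeR adjusted p values of 0.841, 0.765 and 0.794.

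Inside the cell, Meox1 showed the widest departure of a single library. It encodes a homeobox transcription factor induced in stressed cardiac fibroblasts, on chromosome 11 from 101877510 to 101894374. Meox1 had 34.5, 49.6, 125 and 38.3 CPM in Htr2b_cKO libraries 1 to 4, against 82.0 and 36.2 CPM in controls 1 and 2. The library labelled Htr2b_cKO 3 was highest and control 1 second, 3.63-fold and 2.27-fold above the lowest library of their groups. The group means were close, 61.9 ± 42.8 CPM in Htr2b_cKO and 59.1 ± 32.4 CPM in control libraries (SD, n = 4 and 2), and edgeR gave a log2 fold change of 0.07 with an SE of 0.64 (adjusted p = 0.982). It turned to -0.53 when the library labelled Htr2b_cKO 3 was left out and to -0.40 when control 2 was, and leaving out control 1 gave 0.77. Its paralog Meox2 was at 7.65 ± 1.56 CPM in Htr2b_cKO and 6.18 ± 2.66 CPM in control libraries (edgeR adjusted p = 0.804).

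Ddah1, on chromosome 3 from 145758675 to 145894277, encodes an enzyme that breaks down asymmetric dimethylarginine, an inhibitor of nitric oxide synthases. It had 21.5, 26.7, 32.0 and 27.6 CPM in Htr2b_cKO libraries 1 to 4, against 27.8 and 18.5 CPM in controls 1 and 2. Control 2 was lowest and control 1 sat among the Htr2b_cKO values (log2 fold change 0.22, SE 0.22, edgeR adjusted p = 0.782; 0.54 without control 1 and -0.04 without control 2). Its paralog Ddah2 was at 109 ± 29.1 CPM in Htr2b_cKO and 117 ± 17.3 CPM in control libraries.

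S100a4, on chromosome 3 from 90603771 to 90606045, encodes a calcium-binding protein known as fibroblast-specific protein 1, which macrophages and other leukocytes also express. S100a4 had 51.7, 58.0, 44.2 and 23.8 CPM in Htr2b_cKO libraries 1 to 4, against 57.6 and 38.8 CPM in controls 1 and 2. Only Htr2b_cKO 4 lay outside the range of the controls by more than 1 CPM, and it was both the library with the lowest macrophage sum (532 CPM) and the only one with Y-linked transcripts at 139 CPM. Across the other libraries S100a4 matched the order of the macrophage sum only in part. It was lower in the library labelled Htr2b_cKO 3, where that sum was highest (4527 CPM), than in Htr2b_cKO 1 (951 CPM). It was higher in Htr2b_cKO 2 (2413 CPM) and control 1 (2871 CPM) than in control 2 (998 CPM). The parts of sex and of macrophage transcripts in the spread of S100a4 were not tested. With the macrophage score as a covariate the log2 fold change was -0.09 (SE 0.25). Without it the value was -0.12 (SE 0.35, edgeR adjusted p = 0.935). The sign turned without Htr2b_cKO 4 (0.09), without control 1 (0.19) and with the GC and length correction (0.51), and the estimate was -0.37 without control 2.

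**Figure D2:**
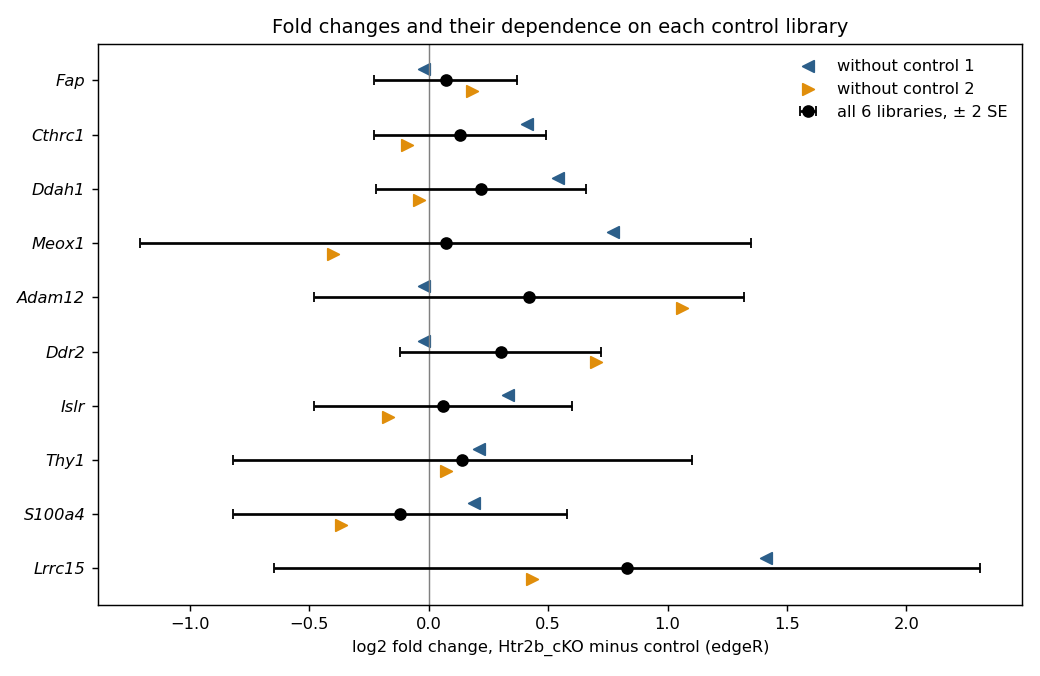
Log2 fold change of each marker (Htr2b_cKO minus control, edgeR, horizontal axis) with all 6 libraries and bars of 2 SEs, and the estimate without control 1 or without control 2 as triangles. Every bar crosses 0, and for 8 markers the triangles lie on opposite sides of 0; for Thy1 and Lrrc15 both lie above it.

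For all 10 markers the log2 gap between the controls was larger than the log2 fold change between the groups, as it was for 54.1% of tested genes. For Thy1 the margin was slight, with a gap of 0.15 beside a fold change of 0.14. The median gap was 0.57 for the 10 markers and 0.26 for all tested genes. Meox1 (1.17), Adam12 (-1.06, control 1 lower), Lrrc15 (0.97) and Ddr2 (-0.72) had the widest gaps, given as control 1 minus control 2. The spread over all 6 libraries was also wide. The SD of log2 CPM was above the median of tested genes (0.28) for 8 of the 10 markers; it was 0.96 for Lrrc15, 0.75 for Meox1, 0.64 for Adam12 and 0.60 for Thy1, but 0.21 for Cthrc1 and 0.14 for Fap.

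The markers did not rise and fall as a block across libraries. Meox1 and Islr were highest in the library labelled Htr2b_cKO 3, where Lrrc15 was lowest and Adam12 close to its lowest. Control 1 had the second-highest level of both Meox1 and Islr and the lowest of both Adam12 and Ddr2. Lrrc15 did not keep to this arrangement, since it was in mid-range in control 1 and low in control 2. Thy1 and S100a4 were both highest in Htr2b_cKO 2 and lowest in Htr2b_cKO 4. By the root-mean-square log2 difference over the 10 markers, the closest pairs of libraries were Htr2b_cKO 1 with Htr2b_cKO 2 (0.42), Htr2b_cKO 4 with control 2 (0.48) and the library labelled Htr2b_cKO 3 with control 1 (0.51). The controls differed from each other by 0.72. Leaving aside the library labelled Htr2b_cKO 3, which had more Htr2b counts than either control, control 1 was still nearer to Htr2b_cKO 2 (0.62) than to control 2. Over all tested genes the order was the reverse, with control 1 nearer to control 2 (0.54) than to Htr2b_cKO 2 (0.57). The pair farthest apart was Htr2b_cKO 1 with the library labelled Htr2b_cKO 3 (1.13).

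**Figure D3:**
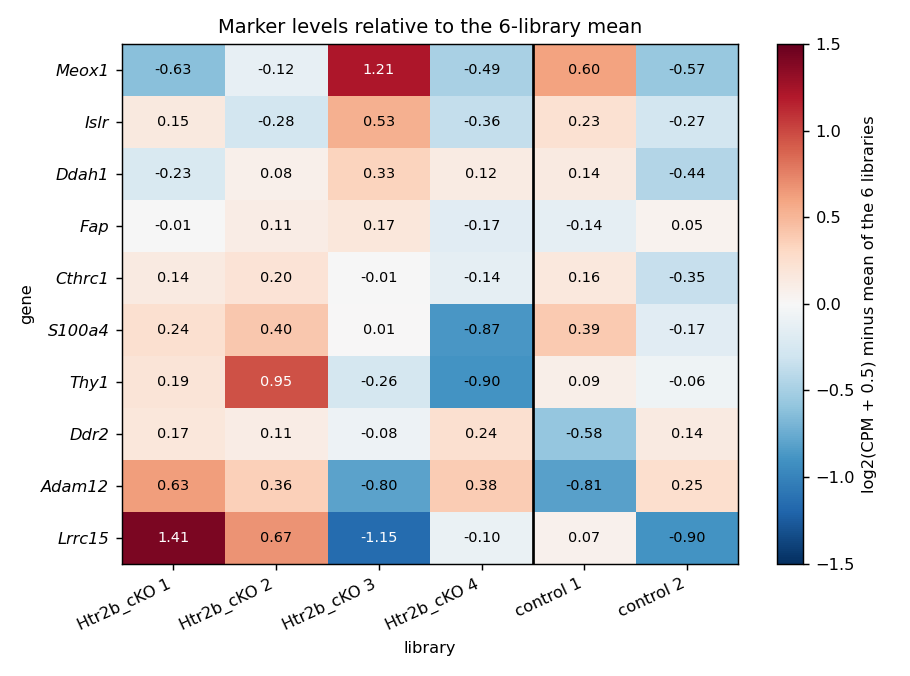
Log2(CPM + 0.5) of each marker minus its mean over the 6 libraries, with Htr2b_cKO libraries left of the line and controls right of it. Meox1 and Adam12 take opposite signs in the library labelled Htr2b_cKO 3 (1.21 and -0.80) and in control 1 (0.60 and -0.81).

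Summed over the 10 markers, the Htr2b_cKO libraries had 1722, 1617, 1402 and 1360.3 CPM, against 1295 and 1319.8 CPM in controls 1 and 2. All 4 sums lay above both controls, as 10.6% of tested genes did singly, although the lowest exceeded the higher control by little. Adam12, Cthrc1, Islr and Ddr2 make up most of this sum, and none of them showed the same separation on its own. No test was made of the sum, because it follows from the choice of genes. The mean log2 level of the 10 markers, which weights them equally, did not separate the groups. Relative to the mean of the 6 libraries it was -0.23 in Htr2b_cKO 4 and 0.01 in control 1.

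Other transcripts that differed between libraries are set beside these patterns. The macrophage sum was highest in the library labelled Htr2b_cKO 3 (4527 CPM) and next in control 1 (2871 CPM), the libraries with the most Meox1. The 16 resting fibroblast genes summed to 11719, 8199.5, 13701 and 8557 CPM in Htr2b_cKO libraries 1 to 4, against 11197 and 9086 CPM in controls 1 and 2, again with the library labelled Htr2b_cKO 3 highest. Gsn alone gave 5439, 2080.3, 6180.1 and 2877 CPM of these sums, against 5093 and 2678 CPM in controls 1 and 2. Pi16, Dpt, Smoc2, Pcolce2, Scara5, Ly6a, Htra3, Abca8a, Tcf21 and Dpp4 were also highest in the library labelled Htr2b_cKO 3. Pdgfra, Cd248 and Mgst1 were lowest there. The sum of the 8 fibroblast markers, mainly collagens, was lowest in the library labelled Htr2b_cKO 3 (75637 CPM). Control 1 was next (90252 CPM), and these libraries had the least Adam12. Col1a1, Col1a2, Col3a1 and Pdgfra were lowest in the same libraries, and Pdgfrb was lowest in the first of them only. Dcn and Lum were instead highest in the library labelled Htr2b_cKO 3 and lowest in control 1, and Tcf21 was highest in the former. The 10 endothelial markers summed to 93.5 to 169 CPM in Htr2b_cKO libraries, against 355 and 87.2 CPM in controls 1 and 2. With the macrophage score as a covariate no marker was called. The log2 fold change was then 0.09 for Meox1 (SE 0.35, against 0.64 without the covariate). For Adam12 it was 0.42 (SE 0.32, against 0.45). The macrophage markers were balanced between the groups (median log2 fold change 0.04). An unchanged fold change therefore does not show their part in the spread between libraries. The part of the resting fibroblast, collagen and endothelial transcripts in these patterns was not tested.

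**Figure D4:**
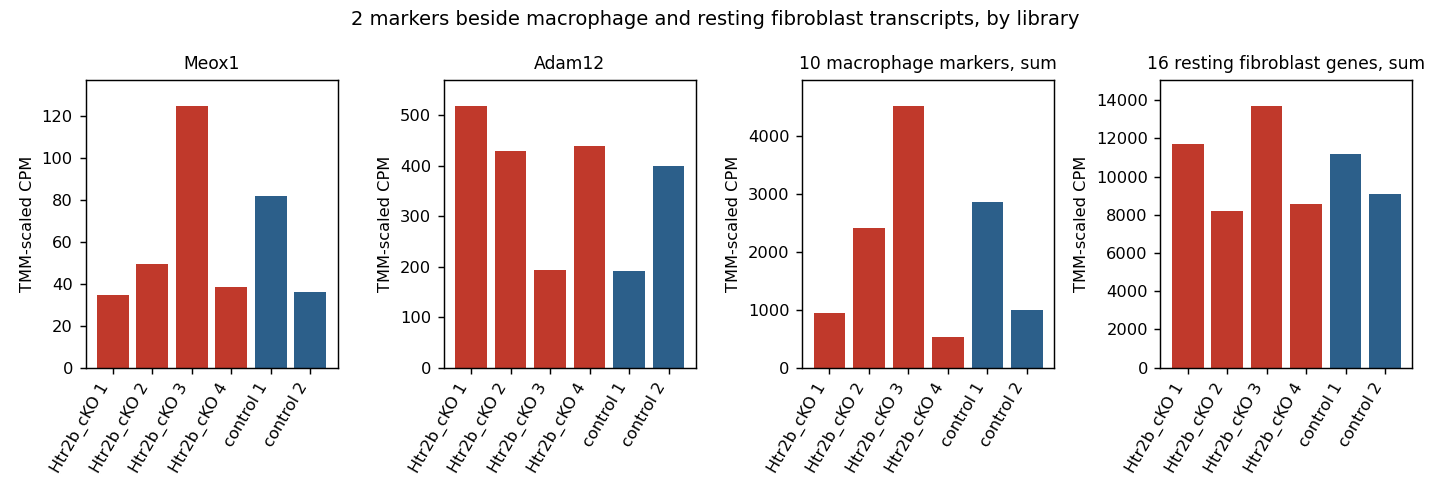
CPM per library (vertical axes from 0) of Meox1 and Adam12 and of the summed macrophage markers and resting fibroblast genes, with Htr2b_cKO in red and control in blue. Meox1 and both sums peak in the library labelled Htr2b_cKO 3, where Adam12 is at 193 CPM.

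Markers of the remaining cell types were at low levels. Lymphocyte markers, of which 7 of 10 passed the filter, summed to 2.74 to 14.3 CPM in Htr2b_cKO and to 7.38 and 22.7 CPM in control libraries, mural markers to 71.1 to 99.6 against 58.5 and 124 CPM, and cardiomyocyte markers to 13.3 to 34.5 against 11.9 and 43.9 CPM. Neutrophil markers summed to 31.0 to 90.5 CPM in Htr2b_cKO and to 38.3 and 108 CPM in control libraries. Schwann markers summed to 45.5 to 55.4 against 63.5 and 66.6 CPM, almost all of it Cnp and Mbp, while the defining gene Sox10 was at 0 in both controls and at 0.242 CPM or less in Htr2b_cKO.

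Other genes of fibroblast activation were not called either. Of 25 such genes edgeR called 0, and 1 had an unadjusted p under 0.05; 16 log2 fold changes were positive and their median was 0.11. That gene was Aspn, which encodes the small proteoglycan asporin: it had 279, 347, 414 and 167 CPM in Htr2b_cKO libraries 1 to 4, against 156 and 92.1 CPM in controls 1 and 2. The groups did not overlap, but the log2 fold change of 1.28 (SE 0.40) did not pass (unadjusted p = 0.0145, edgeR adjusted p = 0.413). Tnc, the matrix glycoprotein tenascin-C, had 1837, 1046, 344 and 761 CPM in Htr2b_cKO libraries 1 to 4, against 466 and 395 CPM in controls 1 and 2 (log2 fold change 1.21, SE 0.63, edgeR adjusted p = 0.606). Postn, whose locus carries the Cre, averaged 1542 ± 561 CPM in Htr2b_cKO and 1947 ± 512 CPM in control libraries (edgeR adjusted p = 0.774).

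Contractile genes stood beside the noncontractile markers without a call. Of 12 contractile genes edgeR called 0 and 1 had an unadjusted p under 0.05, 4 fold changes were positive, and the median on the log2 scale was -0.07. Their sum was 2228, 2312, 1548 and 1944 CPM in Htr2b_cKO libraries 1 to 4, against 2230.4 and 1883 CPM in controls 1 and 2. Those with the smallest p were Myh11, the smooth muscle myosin heavy chain gene (log2 fold change -1.29, unadjusted p = 0.0448, edgeR adjusted p = 0.516), and Des, the desmin gene (-0.35, edgeR adjusted p = 0.634). Myh11 was at 24.4 CPM in control 1 and at no more than 7.53 CPM in any other library. The endothelial sum was likewise highest in control 1, as was the mural sum, of which Myh11 itself is a part. Of 16 resting fibroblast genes edgeR called 0, none had an unadjusted p under 0.05, and 9 fold changes were positive (median 0.05 on the log2 scale). The smallest p values belonged to the lipase gene Lpl (326 ± 27.1 CPM in Htr2b_cKO and 278 ± 4.82 CPM in control libraries, edgeR adjusted p = 0.643) and the transporter gene Abca8a (202 ± 76.2 CPM in Htr2b_cKO and 145 ± 34.4 CPM in control libraries, edgeR adjusted p = 0.698).

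Among paralogs and partners of the 10 markers, 33 genes were tested and edgeR called 0. Of the 33, 4 had an unadjusted edgeR p under 0.05, beside 9.59% of all tested genes. Positive fold changes numbered 17 and the log2 median was 0.01. The Htr2b_cKO libraries lay wholly below both controls for 4 of the 33, S100a1, S100a13, S100a16 and Adam15, beside 8.98% of tested genes. S100a13 and Adam15 are named here after their values were seen, and Adam15 had an unadjusted edgeR p of 0.0592. All 4 lie on chromosome 3, between 89338542 and 90543151. S100a1, S100a13 and S100a16 are within 1 Mb of S100a4, and Adam15, which ends at 89349996, is farther away. S100a1, a calcium sensor of muscle, had 86.2, 77.4, 79.2 and 84.7 CPM in Htr2b_cKO libraries 1 to 4, against 103 and 133 CPM in controls 1 and 2 (log2 fold change -0.53, SE 0.14, unadjusted p = 0.00528, edgeR adjusted p = 0.359). S100a16 had 114 ± 14.7 CPM in Htr2b_cKO and 156 ± 10.7 CPM in control libraries (log2 fold change -0.46, edgeR adjusted p = 0.415). S100a6 and S100a4 itself, in the same gene cluster, had groups that overlapped.

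By the distance of log2 levels over the 6 libraries, the genes outside the lists that lay closest to the mean profile of the 10 markers were Eipr1, Espl1, Myadm, Taf3 and Vim. Their root-mean-square distances ran from 0.0359 (Eipr1) to 0.0623 (Vim), out of 9981 genes compared. That mean profile was 0.20, 0.25, 0.00 and -0.23 in Htr2b_cKO libraries 1 to 4, against 0.01 and -0.23 in controls 1 and 2 on the log2 scale. Vim, the intermediate filament gene of mesenchymal cells, had a log2 fold change of 0.13 (edgeR adjusted p = 0.88).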

How the data were processed

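RNA-seq of 6 libraries was analysed. The authors deposited estimated counts per Ensembl gene, already whole, whose column names are those of a transcript quantifier's gene output per the file headers. They were used unscaled. A second table holds the authors' normalized signal, whose divisor varies by gene and by library. DRAGEN, DESeq2 and mm10 are named per the submitters' processing notes, without roles; no source used here states the strand setting or annotation. Symbols, positions, exon lengths and GC content came from GENCODE M21 of the same build, which held all 42256 identifiers.

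Counts were tested with edgeR 4.0.16 in R 4.3.3 (TMM, filterByExpr, robust quasi-likelihood F test, two-sided, genotype as the only term). The SE was taken as |log2 fold change| over the root of the F statistic. Library totals of 28533427 to 37392496 give a floor of 3 counts, or 0.0781 to 0.108 CPM, for counting error alone. Each of the 15 library pairs differed by more than sampling noise (chi-square per degree of freedom 49.0 to 205). With 4 against 2 libraries an exact permutation test cannot go below p = 0.0667, so none was made. The labels say nothing of separate litters or batches, so p-values measure the spread between these animals. The script was tested on simulated data.

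The members and lists were chosen with earlier results of these data known. The rule for named genes took the 10 members, Htr2b, Postn, the 2 genes of each pathway list with the smallest p where none was called, the 2 most abundant of each marker list, and the 5 unlisted genes nearest the members' mean profile (mean log2 CPM of at least 3). Not all are described. Ddr1, Fzd6, Ror2, Vangl2, Meox2, Ddah2, S100a6, Islr2, Cd3e, Trac, Sox10, Cnp and Mbp were named for their relation to a member or list, with their values known. Log2 levels use a pseudocount of 0.5 CPM. Alternatives were size factors, DESeq2 1.42.0, limma 3.58.1 voom, no filter, legacy dispersion, the authors' factors, a GC and length correction, a macrophage covariate and left-out libraries.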

Additional observations from a re-analysis of the deposited data

Results flagged for a closer look

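Meox1 was set apart in the library labelled Htr2b_cKO 3, because its 125 CPM lay far from the other 3 Htr2b_cKO libraries: the gap to the nearest of them made up 0.835 of the group's whole range, more than Dixon's test allows for 4 samples at the 95% level. Chance sets apart about 1 in 20 such groups, and 10 genes were examined. The library labelled Htr2b_cKO 3 also held the highest macrophage sum (4527 CPM) and the highest sum of resting fibroblast genes (13701 CPM), and 29 estimated counts of Htr2b.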

How the results depend on the processing

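No marker was called under any of the 15 alternatives, with adjusted p values of 0.295 to 0.999. Of 150 fold changes recomputed, 131 kept their direction and 19 turned, for 9 of the 10 markers; Lrrc15 stayed above 0 throughout. The cause of the turns was not tested. Leaving out single libraries gave log2 fold changes of -0.02 to 0.18 for Fap, -0.09 to 0.41 for Cthrc1, -0.04 to 0.54 for Ddah1, -0.53 to 0.77 for Meox1, -0.02 to 1.06 for Adam12, -0.02 to 0.70 for Ddr2, -0.17 to 0.33 for Islr, -0.27 to 0.37 for Thy1, -0.37 to 0.19 for S100a4 and 0.33 to 1.41 for Lrrc15; the number above 0 ran from 5 to 10, and markers whose groups did not overlap numbered 0 to 2, while 25.1% to 49.1% of tested genes did not overlap in those settings. Without the libraries labelled Htr2b_cKO 3 and Htr2b_cKO 4 together, Islr was -0.05, Meox1 -0.49 and S100a4 0.18, and 3 markers did not overlap (Adam12, Thy1 and Lrrc15, all higher), beside 42.2% of tested genes. The GC and length correction gave -0.32 for Fap and 0.51 for S100a4, with 1 marker not overlapping (Fap, lower), and limma voom gave -0.03 for Meox1 and -0.02 for Thy1. Where a control was left out, the lone control was taken to vary like the other group.

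Over all genes, edgeR called 3 (2 higher, 1 lower). The number was 125 with DESeq2 (108 higher, 17 lower), 1 with limma voom, 5 with no filter, 15 with the macrophage covariate, 5 without Htr2b_cKO 3 and Htr2b_cKO 4 and 1 to 8 with single libraries left out. The split was 3 higher and 0 lower after the GC and length correction and 2 and 0 with the authors' factors. No paired analysis was possible because the labels give the groups no shared replicate numbers. With 2 controls, the intervals of the fold changes, not depth, limit what can be seen.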

Other observations

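Tested genes within 1 Mb of each marker were listed after the values of the S100 genes had been seen. Around S100a4, 34 genes were tested, and the Htr2b_cKO libraries lay wholly below both controls for 9 and wholly above for 1. The 9 include S100a1, S100a13 and S100a16, which prompted the count; of the 27 neighbours on none of the gene lists, 6 lay wholly below and 1 wholly above. Around Meox1, 11 of 69 lay wholly below and 1 wholly above. Around Ddah1, on the same chromosome as S100a4 and Postn, 1 of 26 lay wholly below and 4 wholly above. Around the remaining 7 markers, with 6 to 45 genes tested each, 0 to 7 genes lay wholly below and 1 to 3 wholly above. Over all tested genes the shares were 8.98% wholly below and 10.6% wholly above, and none of the genes around any of the 10 markers was called by edgeR; those with an unadjusted p under 0.05 numbered 6 around S100a4, 5 around Meox1 and 1 around Ddah1.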
